A study of Mus musculus with 6 samples.

Results

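The insulin-like growth factor axis was examined in poly(A)-selected RNA of mouse RPE/choroid, the tissue made of the retinal pigment epithelium (RPE) and the vascular choroid behind it. Its 10 members were taken by gene symbol from the deposited expression table: the ligand Igf1, the receptors Igf1r and Insr, the adaptor Irs1, and the binding proteins Igfbp2, Igfbp3, Igfbp4, Igfbp5, Igfbp6 and Igfbp7. All 10 were found among the 33924 genes listed. The 6 libraries came from wild-type C57BL/6J mice with no treatment named, 3 young and 3 aged, and the study took 2 eyes for each sample. Young animals were 1 to 2 months old by the sample labels. The titles put the aged animals at 20 to 24 months, whereas their age field says 22 to 24 months, and all are labelled male. The study's methods describe mice of both sexes and a slightly older young group.

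The value analysed is the authors' mean normalized count, 1 number per gene averaged over young and aged libraries together. No SD between mice goes with it, so neighbouring members in an order of levels cannot be told apart by their spread. The remaining 5 columns hold the fold change and test statistics of the authors' own age comparison and were not used, so no difference between young and aged RPE/choroid is given for any gene. The means of all genes sum to 40816668. The depth of each library is unknown.

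Insulin-like growth factors are small secreted hormones that resemble insulin and drive growth, survival and metabolism. They act through the tyrosine kinase receptors encoded by Igf1r and Insr, which recruit adaptors such as Irs1 and switch on PI3 kinase and Akt. In tissue fluid the factors are held by binding proteins, which lengthen their lifetime, limit access to the receptor or carry them to the cell surface, and which proteases can cut to free the ligand. In the eye the axis is known for its part in vessel growth.

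The binding proteins were the most abundant members. All 6 had a mean normalized count between 7666 and 34879, while Igf1, Igf1r, Insr and Irs1 lay between 84.6 and 4508. The 6 binding proteins held 93.2% of the 116890 mean counts of the 10 members, and the members together made up 0.286% of the counts of all genes. Among 15517 protein-coding genes with a mean of at least 10, each of the 6 binding proteins stood in the top 10%, whose lower bound was 4794. None of the other 4 members reached that bound. The members were chosen with earlier results of these data known, and they leave out Igfbp1, a binding protein gene with a mean of 2.49. The high levels therefore describe the 6 binding proteins listed and not the whole family. The median coding gene had a mean of 842, and Igf1r and Irs1 were below it.

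Longer transcripts yield more reads, so levels of different genes were set side by side per kilobase of the longest protein-coding transcript. The study's methods describe a step through length-scaled transcript abundances before the counts were made, and whether the deposited means still grow with length is not stated. Over these 15517 coding genes the log2 mean rose by 0.22 per doubling of transcript length. The slope was 0.74 over 75 cytosolic ribosomal protein genes, -0.10 over 38 proteasome genes and -0.15 over 13 subunits of the translation factor eIF3. Many subunits of these complexes are used in about equal numbers. The sets were picked by gene symbol, however, and may hold genes for which this is not so. As these slopes differ, both scales are given for each member. Per kilobase refers to the longest protein-coding transcript unless another length is named.

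**Figure D1:**
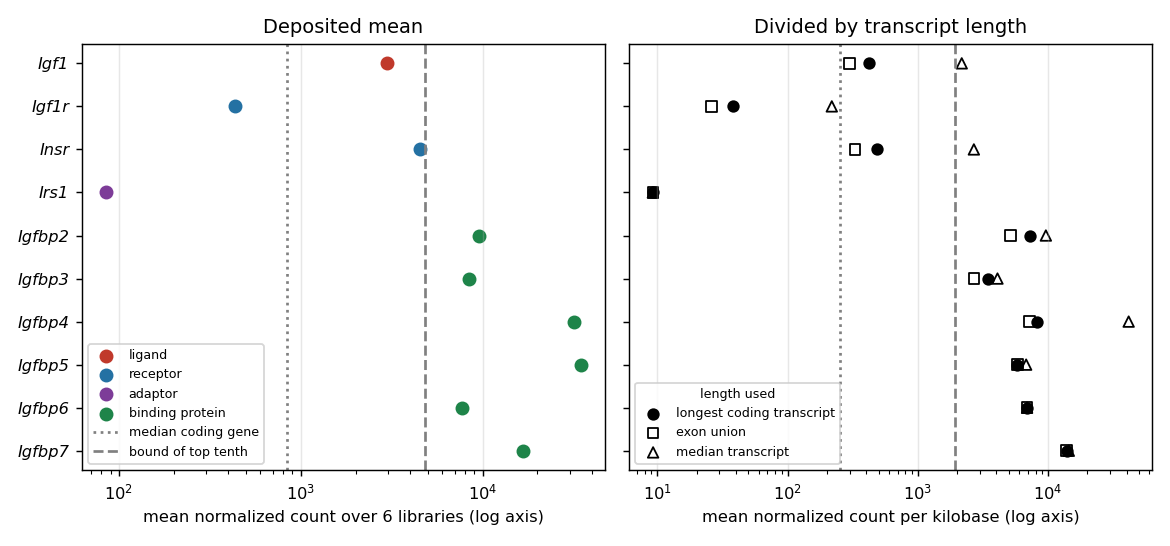
Mean normalized count of each member over the 6 libraries (left, log axis, coloured by role) and the same value per kilobase (right, log axis) with 3 definitions of transcript length. Grey lines mark the median coding gene (842 on the left, 251 on the right) and the lower bound of the top 10% (4794 and 1912), the right-hand lines with the longest coding transcript. The 6 binding proteins lie to the right of the dashed line in both panels, and Irs1 is the lowest member. Igf1 and Insr pass the right-hand dashed line with the median transcript length alone. Ranked among genes with that length, Igf1, Insr and Igfbp3 stand at percentiles 79.2, 83.0 and 89.0, below the top 10%.

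Igfbp7 encodes a secreted protein of the vessel wall and matrix that binds insulin-like growth factors only weakly. Its mean normalized count was 16693, which is 13911 per kilobase, 55.4 times the level of the median coding gene. With this length it was the highest member, at percentile 99.0 of the coding genes and rank 149 of 15517. On the undivided mean it stood behind Igfbp5 and Igfbp4, at percentile 98.3. The gene (ENSMUSG00000036256) sits on chromosome 5 of GRCm38 (minus strand, 77349240 to 77408041), with 6 exons in a transcript of 1200 bases.

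Igfbp4, which encodes an inhibitory binding protein cut by the pappalysin protease that Pappa encodes, had a mean normalized count of 31696. Per kilobase its level was 8274, or 33.0 times the median coding gene, at percentile 98.1. The gene (ENSMUSG00000017493) sits on chromosome 11 (plus strand, 99041244 to 99054392) and has 6 annotated transcripts with a median length of 763.5 bases against 3831 bases for the longest coding one. Divided by the median length, its level was 41514 per kilobase and the highest of the members, so the place of Igfbp4 against Igfbp7 rests on the length chosen.

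Igfbp5 encodes a binding protein that attaches to extracellular matrix and bone mineral. It had the highest mean normalized count of the members, 34879, at percentile 99.4. Spread over a transcript of 6006 bases, this was 5807 per kilobase, at percentile 97.2. The undivided mean therefore placed Igfbp5 highest and the level per kilobase placed it below Igfbp7, Igfbp4, Igfbp2 and Igfbp6.

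Igfbp2, a binding protein made in many embryonic and adult tissues and found in cerebrospinal fluid, reached 9521 mean normalized counts and a level of 7285 per kilobase (percentile 97.8). Igfbp2 (ENSMUSG00000039323) and Igfbp5 (ENSMUSG00000026185) are neighbours on chromosome 1 and point towards each other, from 72824503 to 72852474 on the plus strand and from 72857932 to 72874884 on the minus strand, with 5457 bases between them. Per kilobase the level of Igfbp5 was 0.797 times that of Igfbp2, whereas its undivided mean was 3.66 times as high. Which of the pair was more abundant thus depended on the scale.

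Igfbp6, whose product prefers the second growth factor of the family, encoded by Igf2, had a mean of 7666 and a level of 6894 per kilobase (percentile 97.7). It has 1 annotated transcript of 1112 bases on chromosome 15, from 102144362 to 102149511 on the plus strand (ENSMUSG00000023046), so the choice of length did not move its level. Igfbp3, the main carrier of the growth factors in blood serum, had a mean of 8436 and a level of 3484 per kilobase (percentile 94.8), the lowest per kilobase among the 6. With the median transcript length Igfbp3 stood at percentile 89.0, just under the top 10%, which was the 1 setting in which a binding protein left it.

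Igfbp3 (ENSMUSG00000020427) sits on chromosome 11 (minus strand, 7206086 to 7213923), and 3539 bases separate it from Igfbp1, a binding protein of liver under the control of insulin. The neighbours differed widely. Igfbp1 had a mean normalized count of 2.49, and the level of Igfbp3 per kilobase was 2132 times as high, with a range from 1649 times with the exon union to 3385 times on the undivided mean.

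**Figure D2:**
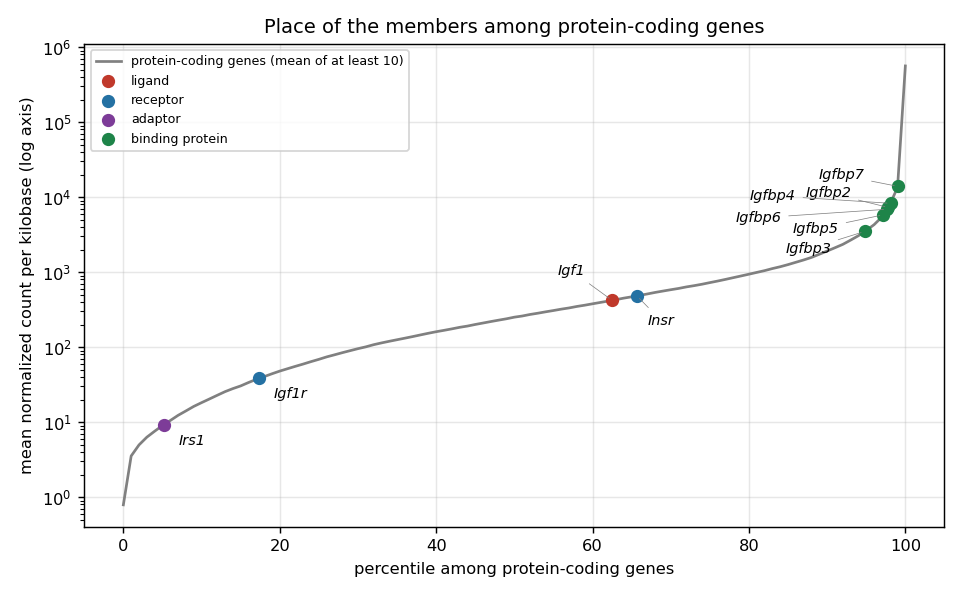
Level per kilobase (log axis) against percentile among 15517 protein-coding genes with 10 or more mean normalized counts, with members as coloured points on the grey curve of all these genes. The 6 binding proteins crowd between percentiles 94.8 and 99.0. Igf1 and Insr lie above the middle at 62.5 and 65.7, and Igf1r and Irs1 lie low at 17.4 and 5.18. On the undivided mean, which is not drawn, Igf1, Insr, Igf1r and Irs1 stood higher, at 81.9, 89.1, 35.8 and 14.4.

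Per kilobase of the longest coding transcript, Igfbp7 made up 30.5% of the summed level of the 6 binding proteins, Igfbp4 18.1%, Igfbp2 16.0%, Igfbp6 15.1%, Igfbp5 12.7% and Igfbp3 7.63%. On the undivided mean Igfbp5 held 32.0% and Igfbp4 29.1%, Igfbp7 held 15.3%, and Igfbp6, with 7.04%, was the smallest part in place of Igfbp3. Igfbp3 held between 4.90% and 7.75% on each of the 4 scales tried.

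**Figure D3:**
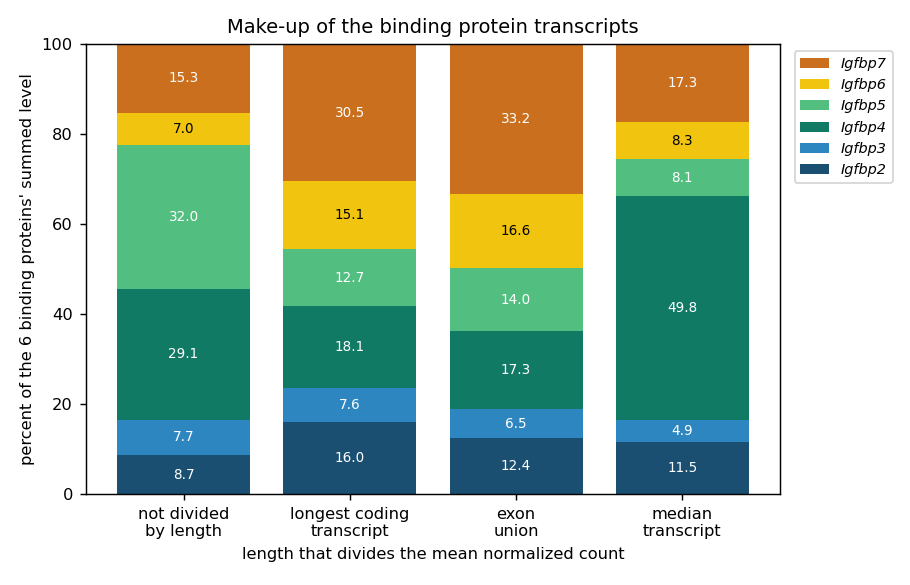
Percent of the summed level of the 6 binding proteins held by each, with the mean normalized count left undivided or divided by each of 3 transcript lengths. Igfbp7 is the largest part with the longest coding transcript (30.5%) and the exon union (33.2%), Igfbp5 on the undivided mean (32.0%) and Igfbp4 with the median transcript length (49.8%).

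Igf1, the ligand, had a mean normalized count of 2970, at percentile 81.9 on the undivided mean. The gene is known for transcripts with very different untranslated ends, and it has 8 annotated coding transcripts, the longest of 7052 bases and a median of 1367.5 bases. Per kilobase its level was 421 with the longest transcript (percentile 62.5) and 2172 with the median length (percentile 79.2). Either way Igf1 was above the median coding gene and below each binding protein. The 6 binding proteins summed to 108 times the level of Igf1 per kilobase, and to 36.7 times on the undivided mean. Igf1 (ENSMUSG00000020053) sits on chromosome 10 (plus strand, 87858265 to 87937042).

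The receptors were unequal. Insr, the insulin receptor, which also binds the growth factors in some of its forms, reached 4508 mean normalized counts and a level of 482 per kilobase (percentile 65.7). Igf1r, the receptor with the highest affinity for the Igf1 product, had a mean of 436 and a level of 38.3 per kilobase (percentile 17.4). On the undivided mean Insr stood at percentile 89.1 and Igf1r at 35.8. Insr was 12.6 times as abundant as Igf1r per kilobase, and between 10.3 and 12.6 times over the 4 scales. Both genes have 21 exons in the longest coding transcript, of 9355 bases for Insr and 11409 bases for Igf1r, so this ratio leans little on the length. Insr (ENSMUSG00000005534) sits on chromosome 8 (minus strand, 3122061 to 3279617), and Igf1r (ENSMUSG00000005533) on chromosome 7 (plus strand, 67952827 to 68233668).

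Igf1 was 11.0 times as abundant as Igf1r per kilobase and 6.81 times on the undivided mean. Against Insr it was 0.874 times as abundant per kilobase and 0.659 times on the undivided mean. The ligand transcript thus stood above that of its own receptor and below that of the insulin receptor on both scales. In a bulk sample a lower level may mean fewer cells of a type or less RNA in each, which cannot be told apart.

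Irs1, the adaptor that links both receptors to PI3 kinase, was the least abundant member. Its mean normalized count was 84.6, a level of 9.25 per kilobase, at percentile 5.18, and at 14.4 on the undivided mean. Igfbp7 was 1504 times as high per kilobase and 197 times as high on the undivided mean. Irs1 (ENSMUSG00000055980) has 2 exons in a single transcript of 9144 bases on chromosome 1 (minus strand, 82233101 to 82291416). Of its 50-base words 69.5% occur in no other gene, and the rest are shared with Gm9747, a gene model on the opposite strand that the table lists at 0. For the other 9 members 97.6% or more of the words were their own, so few reads could be split between relatives. Igfbp7 shares some of its words with the overlapping gene Polr2b on the opposite strand, which had a mean of only 17.25. Whether the counting used strand is not stated, and whether reads of 1 gene were counted for the other was not tested.

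On each of the 4 scales the level fell from Igfbp3 to Insr, from Insr to Igf1, from Igf1 to Igf1r and from Igf1r to Irs1. The size of some steps depended on the scale. Igfbp3 was 7.23 times as high as Insr per kilobase, but 1.52 times with the median transcript length and 1.87 times on the undivided mean. Insr was between 1.09 and 1.52 times as high as Igf1, and Igf1 between 6.81 and 11.5 times as high as Igf1r. Igf1r was 4.14 times as high as Irs1 per kilobase, and between 2.81 and 23.6 times over the 4 scales. Among the binding proteins Igfbp4 was above Igfbp2 and Igfbp5 above Igfbp3 on every scale. The order of Igfbp7 against Igfbp4, of Igfbp2 against Igfbp6 and of Igfbp6 against Igfbp5 changed with the scale.

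The promoters of 3 members that span the range of levels are printed as examples of the sequence at their start sites. They are Igfbp7 and Igfbp4, the members with the highest levels per kilobase, and Irs1, the lowest. Each is the RefSeq sequence of GRCm38.p6 from 250 bases before to 50 bases after the start of transcription, read along the strand of the gene. Capitals mark TATAAA, the core of the TATA box, and GGGCGG, the GC box, or its complement. The positions are chr5:77407996-77408295 on the minus strand for Igfbp7, chr11:99040994-99041293 on the plus strand for Igfbp4 and chr1:82291390-82291689 on the minus strand for Irs1.
Igfbp7: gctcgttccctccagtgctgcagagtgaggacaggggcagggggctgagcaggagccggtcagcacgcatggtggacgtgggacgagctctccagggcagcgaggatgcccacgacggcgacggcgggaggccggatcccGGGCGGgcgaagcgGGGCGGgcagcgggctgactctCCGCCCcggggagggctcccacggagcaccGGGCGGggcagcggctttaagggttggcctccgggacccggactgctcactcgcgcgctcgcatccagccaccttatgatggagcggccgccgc
Igfbp4: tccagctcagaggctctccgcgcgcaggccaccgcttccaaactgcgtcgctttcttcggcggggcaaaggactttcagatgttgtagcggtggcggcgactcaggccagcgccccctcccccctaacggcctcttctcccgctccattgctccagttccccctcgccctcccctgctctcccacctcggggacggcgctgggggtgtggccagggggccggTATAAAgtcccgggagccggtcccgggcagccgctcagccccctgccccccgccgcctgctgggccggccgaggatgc
Irs1: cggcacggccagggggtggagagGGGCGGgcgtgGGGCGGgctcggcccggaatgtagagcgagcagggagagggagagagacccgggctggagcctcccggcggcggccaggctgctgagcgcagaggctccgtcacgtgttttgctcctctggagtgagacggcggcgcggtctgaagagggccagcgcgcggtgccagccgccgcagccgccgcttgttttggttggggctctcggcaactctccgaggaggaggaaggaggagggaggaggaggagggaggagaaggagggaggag

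Of the 9 members with a promoter in the RefSeq table, Igfbp4 alone held TATAAA in the sense direction, 28 bases before the start, and Igfbp6 held it on the other strand. Over all 32851 promoters of this length 13.6% hold TATAAA on either strand. GGGCGG or its complement stood in the promoters of Igf1r, Irs1, Igfbp7 and in 1 of the 2 promoters of Igfbp2, against 35.7% of all promoters, with 4 copies in that of Igfbp7 and 2 in that of Irs1. The words searched do not overlap each other in the printed sequences. The most and the least abundant member per kilobase thus both carried GC boxes and no TATAAA in this window.

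Base composition varied among members of similar level. The promoter of Igf1r was the richest in G and C, with 76.0% and 48 CG steps in 300 bases, and Igfbp7 had 73.3% and 33 steps. Igfbp3 had 71.7% and 37 steps. Irs1 had 71.3% and 28 steps, and Igfbp4 71.3% and 27 steps. The median promoter had 52.7% and 7 steps. Igfbp5, with 56.3%, Igf1, with 52.3%, and Igfbp6, with 49.7%, lay near that median although Igfbp5 and Igfbp6 were among the abundant members.

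The wider pathway was described with 43 further genes, each present in the table. Of these, 22 were above the median coding gene per kilobase of the longest coding transcript and 2 reached the top 10%. Among the 10 members the numbers were 8 and 6. By definition 50% of the ranked coding genes lie above the median. Both lists were drawn with earlier results of these data known, and the scarce binding proteins and carriers fell in the wider list. The contrast between the lists therefore depends on how they were drawn, and no conclusion is taken from it. The second ligand gene, Igf2, reached 1810 mean normalized counts and a level of 383 per kilobase (percentile 60.3), 0.910 times that of Igf1. The insulin genes were lower, with a mean of 1.29 for Ins1 and 90.9 for Ins2. Per kilobase the level of Ins2 was 99.0, at percentile 30.65. The ligand transcripts of the tissue were therefore mainly those of Igf1 and Igf2, at similar levels per kilobase.

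Igf2r encodes the receptor that clears the Igf2 product and sorts lysosomal enzymes. Its mean was 3370 and its level 379 per kilobase (percentile 60.1), 9.91 times that of Igf1r, with a range from 7.72 times on the undivided mean to 19.2 times with the median transcript length. Insrr, an orphan relative of the insulin receptor, had a mean of 50.3 and stood at percentile 5.56. Among these 4 receptor genes, Insr and Igf2r were abundant and Igf1r and Insrr were not.

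The remaining binding proteins and carriers, Igfbp1, Igfbpl1 and Igfals, had means between 2.49 and 21.2, at percentile 4.40 or lower per kilobase. Igfals encodes the acid-labile subunit that holds the growth factors in a serum complex with the Igfbp3 product. The abundance of Igfbp3 was thus not shared by its serum partner or its chromosomal neighbour.

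Among proteases that cut binding proteins, Htra1, a secreted serine protease, had a mean of 4967 and a level of 2434 per kilobase, at percentile 92.3. Pappa2 had a mean of 2005 (percentile 46.1) and Pappa, its close relative, a mean of 73.1 (percentile 3.24). The stanniocalcins Stc1 and Stc2, which inhibit the pappalysins, had means of 255 and 63.3. Htra1 was in the upper part of the coding genes on each scale, between percentiles 85.7 and 92.7. Pappa2 moved with the scale, from percentile 46.1 to 52.4 with the exon union, 73.0 on the undivided mean and 85.1 with the median transcript length.

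Among the adaptors the 4 insulin receptor substrate genes were the lowest per kilobase. Irs2 had a mean of 216 and a level of 34.2 per kilobase, 3.70 times that of Irs1, and Irs3 had a mean of 70.4, while Irs4 had 0.673. Each of the 4 insulin receptor substrate genes was at percentile 16.2 or lower per kilobase. Shc1 and Grb2, adaptors that lead to the Ras pathway, had levels of 1092 and 856 per kilobase (percentiles 82.7 and 78.3). Grb10, which restrains both receptors, had a level of 527 (percentile 67.7). Gab1, Grb14 and Sh2b1 lay near the middle, at percentiles 48.9, 51.7 and 53.5.

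Of the 17 kinases and effectors 11 were above the median coding gene per kilobase, where by definition 50% of the ranked coding genes lie. Akt1 had the highest level per kilobase of the longest coding transcript, with a mean of 5335 and a level of 1983 (percentile 90.3), and Akt2 followed with 1150. Pik3r1, a regulatory subunit of PI3 kinase, had a level of 909. Foxo1, a transcription factor held back by Akt, was the lowest of the 17 with a mean of 323 and a level of 37.3 per kilobase. Ghr, the growth hormone receptor, had a mean of 2055 and a level of 492 per kilobase, and 3 of the 4 genes of the growth hormone arm were above the median.

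**Figure D4:**
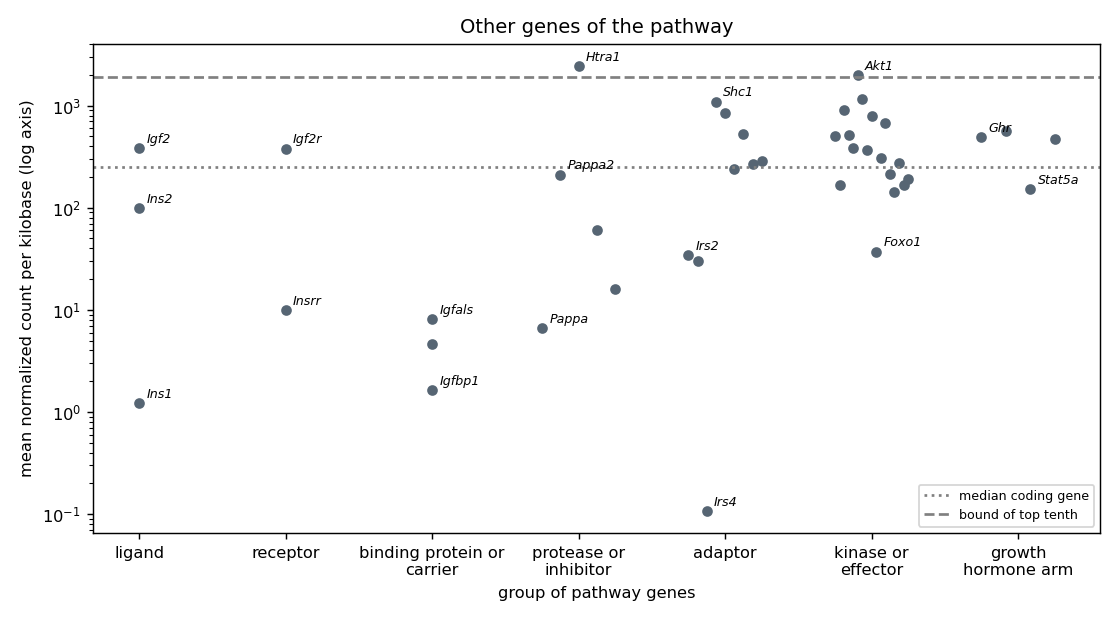
Level per kilobase (log axis) of 43 further pathway genes in 7 groups, 1 point per gene, with some genes labelled. The dotted line is the median coding gene (251) and the dashed line the lower bound of the top 10% (1912). Htra1 and Akt1 lie above the dashed line, and Igfbp1, Igfals, Ins1 and Irs4 lie far below the dotted one.

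The tissue carried the markers of its label. Of 10 RPE genes 8 were in the top 10% per kilobase, among them Rpe65 and Ttr, while Best1 had a mean of 81.8. Genes of other cells were also abundant. In the top 10% were 7 of 7 rod photoreceptor genes, 4 of 4 skeletal muscle genes and 4 of 6 fibroblast genes. So were 3 of 6 pericyte and smooth muscle genes and 3 of 5 macrophage genes found. Of 4 melanocyte genes Dct and Mlana were in the top 10%, whereas Sox10 stood at percentile 64.1 and Kit at 23.4. Whether the Dct and Mlana transcripts came from melanocytes or from the pigmented RPE was not tested. Schwann cells had 1 of 4 genes in the top 10% and red cells 1 of 2 found. Of 7 endothelial genes 1 was in the top 10% and 6 were above the median coding gene. The part of these other cells in the levels of the 10 members was not tested.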

How the data were processed

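The authors made poly(A)-selected libraries from RPE/choroid RNA of 3 young and 3 aged mice. Per the paper's supplementary methods, the authors cleaned the reads with BBDuk, aligned them using STAR against Ensembl GRCm38 transcripts (release 82), quantified them with Sailfish 0.9.0 and compared the ages with DESeq2. The deposited value used here is a signal, the mean of the authors' normalized counts in the 6 libraries. The 5 further columns of the table hold the authors' comparison (log2 fold change, standard error, statistic, p-value and adjusted p-value) and were not used. The planned test between age groups needs values per library and was not run.

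Gene models came from GENCODE M21 (GRCm38), which matched 97.1% of genes with a mean of at least 10 by symbol or by a RefSeq synonym. Means were divided by transcript length in kilobases and ranked among 15517 protein-coding genes with a mean of at least 10. Alternatives were the median transcript length, the exon union, no division and other minimum means. The words of 50 bases were sought on both strands of all GENCODE transcripts. Promoters came from RefSeq (GRCm38.p6). The genes named are the members and lists of pathway genes and cell type markers. The members and lists were chosen with earlier results of these data known. Ranking and scaling were tested on simulated means made in proportion to length. This checks the arithmetic and not whether the deposited means grow with length. Python 3.11.15, numpy 2.4.6, pandas 2.3.3 and matplotlib 3.10.9 were used.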

Additional observations from a re-analysis of the deposited data

How the results depend on the processing

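The 6 binding proteins were in the top 10% of coding genes with a minimum mean above 0, of 10 and of 100, on the undivided mean and with the exon union, and 5 were with the median transcript length, where Igfbp3 fell just below. The last 2 settings were chosen after seeing the data. The median level of the 10 members was 4646 per kilobase with the longest coding transcript, 5433 with the median transcript length and 3925 with the exon union, which differ through the length that divides the mean. Igfbp7 held 30.5% of the summed binding proteins, 33.2% with the exon union and 15.3% on the undivided mean. No paired analysis was possible because the value used is a mean over all libraries. For the same reason the edgeR fit, other size factors, a filter on counts per library and leaving out replicates were not run, and counting error per library could not be given.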
